A study of Homo sapiens with 6 samples.

Results

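The 8 genes described here encode kinases of the RAF-MEK-ERK cascade and proteins that hold or tune it, namely *ARAF*, *BRAF*, *MAP2K1*, *MAP2K2*, *MAPK3*, *KSR1*, *SHOC2* and *LZTR1*. They were matched by symbol, with no threshold on a measured value. All 8 were found among the 24635 gene identifiers of the merged read-count table of the series, and in all 6 of its libraries. In this cascade RAS bound to GTP brings RAF kinases to the membrane, RAF phosphorylates the MEK kinases, and MEK phosphorylates the ERK kinases, which then act on kinases and transcription factors. Scaffold proteins such as KSR1 bring RAF and MEK together. Inherited gain of signalling through this route underlies the RASopathies, a group of developmental syndromes that includes Noonan syndrome.

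RNA was sequenced from HEK293T cells, a human embryonic kidney line that carries the SV40 large T antigen, grown in DMEM with 10% FBS. There were 3 libraries from cells with a control hairpin (sh-control) and 3 from cells labelled as carrying a hairpin against *RREB1* (sh-*RREB1*). By the study's methods the hairpins were delivered by lentivirus and the lines selected with an antibiotic, so that both groups share the vector and the selection. RREB1 is a zinc finger transcription factor, and the comparison asks how transcript levels differ when it is targeted. Nothing in the sources says that the libraries of a group came from separate cultures, so p-values measure only the spread between these libraries, which may be technical. In bulk RNA, a different number of cells of a kind and a different amount of RNA per cell cannot be told apart.

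The controls held 23362197 to 33044061 reads on genes and the sh-*RREB1* libraries 12257054 to 26145878. A pair of libraries stood apart. In sh-*RREB1* replicate 3, 52.1% of aligned reads were multimapping and so uncounted, against 3.66% to 7.63% elsewhere, and sh-control replicate 1 held fewer reads on genes of high GC content than the other controls. Counts are given as CPM, reads on a gene per 1000000 reads of its library after TMM scaling. For *RREB1* itself the controls gave 27.1, 25.2 and 26.6 CPM and the sh-*RREB1* libraries 23.7, 24.6 and 23.1 CPM. Its log2 fold change was −0.14 (SE 0.13, adjusted p = 0.486 from the quasi-likelihood test of edgeR, adjusted by Benjamini-Hochberg over all genes tested). The groups did not overlap (exact permutation test, two-sided, p = 0.1, the smallest that 3 against 3 allow). With each library's dependence on GC content and length removed, as described below, the log2 fold change was −0.36 (SE 0.12, edgeR adjusted p = 0.0534). *RREB1* was thus lower in each sh-*RREB1* library than in each control, as were 20.0% of all genes tested. It did not pass an adjusted p of 0.05 in either edgeR test. The groups below are those of the labels. Markers of the line were read in every library, among them *VIM* at 6685 to 16114 reads and *KRT18* at 766 to 2074 reads, while *PAX2* had only 3 to 10 reads. Markers of other cell types were low or at 0, from 0 reads of *CD3E* and *INS* in all 6 libraries to at most 103 reads of *COL1A2*. The 103 reads were in sh-*RREB1* replicate 2, and *COL1A2* had 1 read in replicate 3 and 0 in the others. The log2 fold changes of the line markers were all positive. They ran from 0.18 for *KRT18* (edgeR adjusted p = 0.661) to 1.83 for *EYA1* (edgeR adjusted p = 0.00067).

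Sequences upstream of *MAP2K2*, *ARAF* and *SHOC2* are printed because the question concerns a factor that binds promoters, and because these genes run from low to high GC content among the 8. Each is the 250 bases before the RefSeq start site on GRCh38.p14, read 5′ to 3′ on the strand of the gene, and the capitals mark CpG dinucleotides. The *MAP2K2* window is chr19:4124123-4124372 on the minus strand, the *ARAF* window chrX:47560955-47561204 on the plus strand and the *SHOC2* window chr10:110919120-110919369 on the plus strand.
MAP2K2: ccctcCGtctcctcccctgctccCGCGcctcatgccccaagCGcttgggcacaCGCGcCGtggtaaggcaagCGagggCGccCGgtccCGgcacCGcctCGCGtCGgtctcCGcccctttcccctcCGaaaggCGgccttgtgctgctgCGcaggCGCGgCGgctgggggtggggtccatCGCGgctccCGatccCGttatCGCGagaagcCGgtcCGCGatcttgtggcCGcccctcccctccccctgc
ARAF: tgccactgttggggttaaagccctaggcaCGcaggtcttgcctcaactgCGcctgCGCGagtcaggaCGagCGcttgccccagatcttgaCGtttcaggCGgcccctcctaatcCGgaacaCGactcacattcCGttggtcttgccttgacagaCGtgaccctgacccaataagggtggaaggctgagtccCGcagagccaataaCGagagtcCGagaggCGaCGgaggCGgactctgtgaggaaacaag
SHOC2: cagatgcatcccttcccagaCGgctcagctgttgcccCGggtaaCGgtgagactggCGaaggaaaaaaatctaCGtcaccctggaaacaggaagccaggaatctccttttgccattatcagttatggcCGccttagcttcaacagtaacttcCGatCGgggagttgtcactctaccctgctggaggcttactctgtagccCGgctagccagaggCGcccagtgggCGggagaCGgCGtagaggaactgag

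The *MAP2K2* window held 32 CpG at a GC content of 74.0%, *ARAF* 18 CpG at 59.2% and *SHOC2* 13 CpG at 56.4%. The median over 35116 windows of 27305 genes was 11 CpG and 58.0%. All 8 genes had a window in the RefSeq table. *MAP2K1* and *MAP2K2* had 2 windows and *KSR1* had 3, and only the window nearest the gene's Gencode start was used. The RefSeq starts of *BRAF* and *MAPK3* lay 661 and 286 bases from the Gencode start, so that their windows fell inside the Gencode gene. The windows used for the remaining genes held 14 to 33 CpG, with the highest GC content, 80.8%, at *KSR1*. Both strands of each window were searched for CCAAACC and for ACCACCC, letters that belong to published forms of the RREB1 response element. CCAAACC was in 3.82% and ACCACCC in 4.15% of all windows, and neither was in any of the 8, which says only that these letters are not in these bases.

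Transcripts of 4 of the 8 genes were higher in sh-*RREB1* at an adjusted p below 0.05, namely *ARAF*, *MAP2K2*, *KSR1* and *LZTR1*, and *BRAF* was lower. The differences ran from 2.56-fold higher for *LZTR1* to 0.731-fold for *BRAF*. The study's methods set an adjusted p below 0.01 with an absolute log2 fold change above 1, in DESeq2. At these thresholds edgeR, the main test here, called none of the 8, and DESeq2 called *LZTR1* and *MAP2K2*, 2 of 8 where DESeq2 called 7.06% of all genes tested. At an unadjusted p below 0.05 in edgeR there were 5 of the 8 and 34.4% of all genes tested. At the thresholds of the study, by edgeR, 3.41% of the 23345 genes tested were called, 2.71% higher and 0.698% lower. At an adjusted p below 0.05 alone, 10.8% of all genes tested were higher and 8.81% lower, beside which stand 4 of 8 and 1 of 8. The same 5 genes had groups that did not overlap, 4 higher and 1 lower, and over all genes 21.1% were higher and 20.0% lower without overlap. The median log2 fold change of the 8 was 0.59, and that of all genes tested was 0.01. An exact permutation test of log2 CPM over the 6 libraries (two-sided) gave p = 0.1, the smallest p that 3 against 3 allow, for these 5 genes. Leaving out sh-control replicate 2, sh-*RREB1* replicate 2 or sh-*RREB1* replicate 3 took each of the 5 past an adjusted p of 0.05. The values were then 0.0654 to 0.15 by edgeR (quasi-likelihood, Benjamini-Hochberg).

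**Figure D1:**
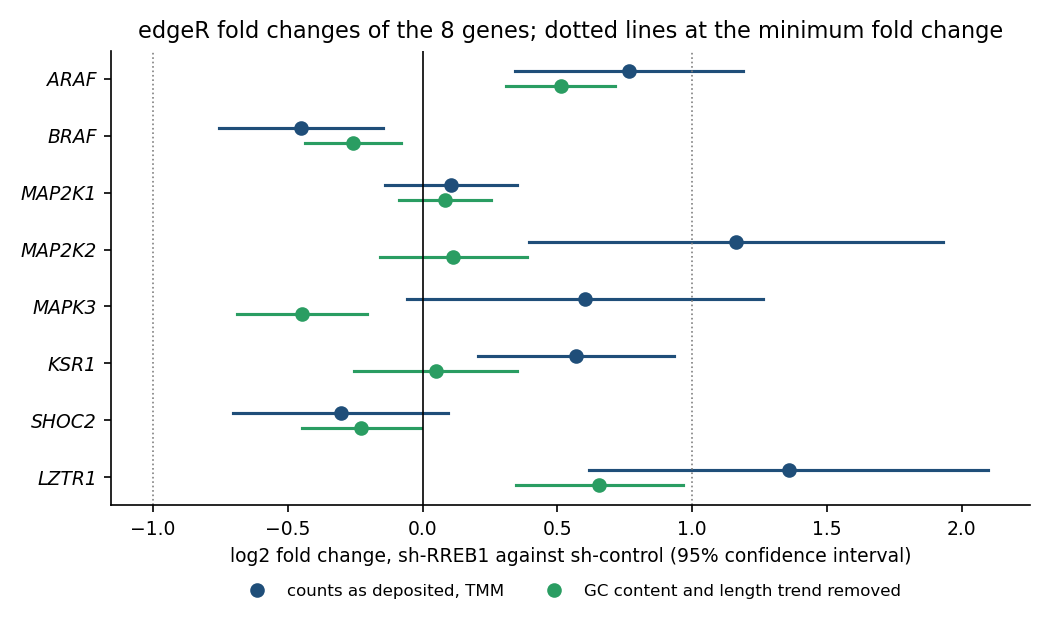
Log2 fold change of each of the 8 genes, sh-*RREB1* against sh-control, with its 95% confidence interval (horizontal axis), from the counts as deposited (blue) and with each library's dependence on GC content and length removed (green). Dotted lines mark the minimum log2 fold change of 1. *MAPK3* lies at 0.60 in blue and at −0.45 in green, and *MAP2K2* at 1.16 and 0.11.

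The RAF kinases, which receive the signal from RAS, moved apart. *ARAF* encodes a RAF kinase of low basal activity and lies at chrX:47561205-47571908 on the plus strand. Replicates 1, 2 and 3 of sh-control held 15, 21.7 and 22.6 CPM (345, 591 and 725 reads). The sh-*RREB1* replicates held 30.7, 38.0 and 32.2 CPM (762, 996 and 406 reads). Every sh-*RREB1* library was above every control, and control replicate 1 was the lowest of all. The mean was 19.8 ± 4.15 CPM in sh-control and 33.6 ± 3.89 CPM in sh-*RREB1* (SD, n = 3), a log2 fold change of 0.77 (SE 0.19, 95% interval 0.34 to 1.19, edgeR adjusted p = 0.0232). Without control replicate 1 the log2 fold change was 0.57 (edgeR adjusted p = 0.0165).

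*BRAF* encodes the RAF kinase with the highest basal activity and the one most often mutated in cancer. It lies at chr7:140719327-140924929 on the minus strand. Its level was 112, 85.5 and 86.8 CPM in the controls (replicates 1, 2 and 3) and 71.9, 64.6 and 71.2 CPM in sh-*RREB1*. The groups did not overlap, and here control replicate 1 was the highest library. *BRAF* fell from 94.8 ± 14.9 to 69.3 ± 4.04 CPM (SD, n = 3), a log2 fold change of −0.45 (SE 0.13, 95% interval −0.76 to −0.15, edgeR adjusted p = 0.0453). Each of the 6 fits that left out a library gave a negative value, from −0.55 to −0.35, and an edgeR adjusted p of 0.0578 to 0.127.

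The MEK kinases differed from each other in the same comparison. MAP2K1 (MEK1) and MAP2K2 (MEK2) are close relatives that phosphorylate the ERK kinases on a threonine and a tyrosine. *MAP2K1*, at chr15:66386837-66491656 on the plus strand, had 61.7, 67.5 and 66.8 CPM in the controls and 66.4, 73.6 and 71 CPM in sh-*RREB1*. The groups overlapped, with sh-*RREB1* replicate 1 inside the control range. The log2 fold change was 0.11 (SE 0.11, 95% interval −0.14 to 0.35, edgeR adjusted p = 0.539), so a difference of more than 0.35 in either direction lay outside the interval.

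*MAP2K2*, at chr19:4090321-4124122 on the minus strand, had 9.74, 23.0 and 25.6 CPM in the controls (224, 626 and 821 reads in replicates 1, 2 and 3). The sh-*RREB1* replicates had 34.0, 56.9 and 39.9 CPM (846, 1491 and 503 reads). All 3 sh-*RREB1* libraries were higher than all 3 controls, and the controls themselves spanned more than the distance from the highest of them to the lowest sh-*RREB1* library. The mean rose from 19.4 ± 8.50 to 43.6 ± 11.9 CPM (SD, n = 3), with a log2 fold change of 1.16 (SE 0.34, 95% interval 0.40 to 1.93, edgeR adjusted p = 0.0428). Control replicate 1 was 1.31 log2 below the mean of the other controls.

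*MAPK3* encodes ERK1, the kinase at the end of the cascade, and lies at chr16:30114105-30123506 on the minus strand. Its controls were at 15.3, 29.0 and 33.4 CPM and its sh-*RREB1* libraries at 30.6, 50.9 and 36.7 CPM. The groups overlapped, since sh-*RREB1* replicate 1 fell between control replicates 2 and 3. The log2 fold change was 0.60 (SE 0.29, 95% interval −0.06 to 1.26, edgeR adjusted p = 0.18), and 0.30 without control replicate 1 (edgeR adjusted p = 0.312).

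**Figure D2:**
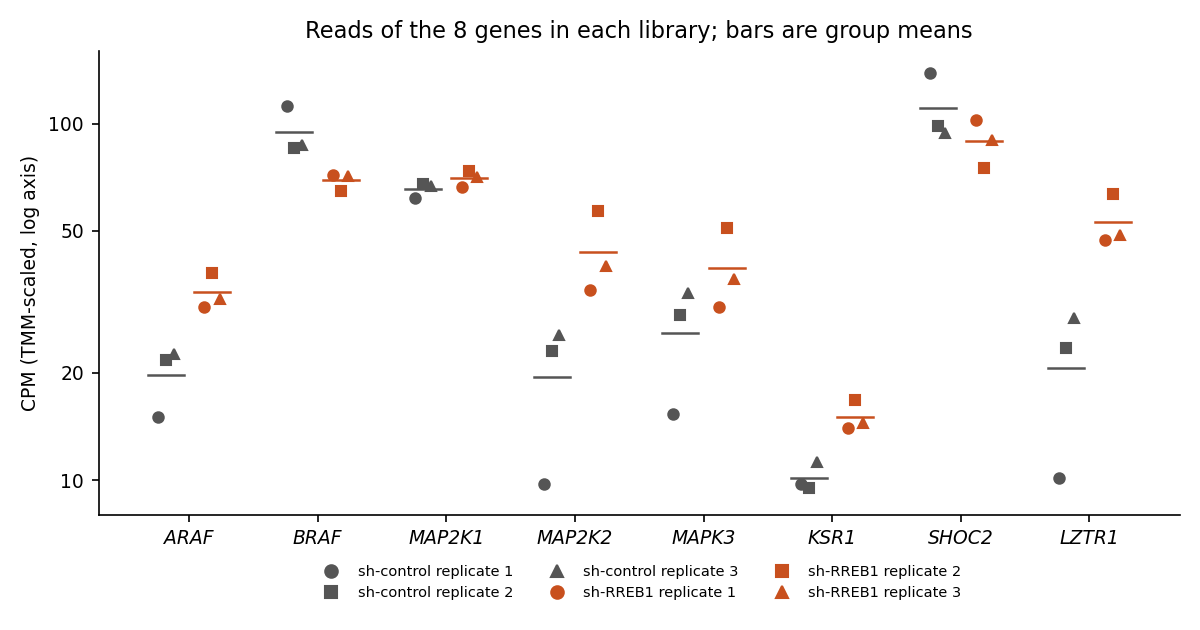
CPM of the 8 genes in each library (vertical log axis, TMM-scaled), with sh-control in grey and sh-*RREB1* in orange, a marker shape for each replicate number and a bar at each group mean. *LZTR1*, *MAP2K2*, *ARAF* and *KSR1* have every orange point above every grey point, and *BRAF* has the reverse. Control replicate 1 is the lowest control for *MAP2K2* at 9.74 CPM and the highest for *SHOC2* at 138 CPM.

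The scaffold and the regulators of the cascade gave the largest value and the least expressed gene. *KSR1* encodes a pseudokinase scaffold that binds RAF, MEK and ERK, and lies at chr17:27456448-27626438 on the plus strand. The controls were at 9.78, 9.48 and 11.2 CPM and the sh-*RREB1* libraries at 14, 16.8 and 14.4 CPM, so that the groups were apart. Its 3 control libraries lay close together, with replicate 1 only 0.08 log2 below the mean of the others, unlike *MAP2K2* and *LZTR1*. The mean was 10.2 ± 0.94 CPM against 15.1 ± 1.51 CPM (SD, n = 3), a log2 fold change of 0.57 (SE 0.16, 95% interval 0.20 to 0.93, edgeR adjusted p = 0.0383).

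*SHOC2* encodes a leucine-rich repeat protein that, with MRAS and a PP1 phosphatase, removes an inhibitory phosphate from RAF. It lies at chr10:110919367-111017307 on the plus strand. The controls held 138, 98.6 and 94.1 CPM and the sh-*RREB1* libraries 103, 75.3 and 90.2 CPM, with sh-*RREB1* replicate 1 above control replicates 2 and 3. The log2 fold change was −0.30 (SE 0.18, 95% interval −0.70 to 0.09, edgeR adjusted p = 0.263).

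*LZTR1* encodes an adaptor of a CUL3 ubiquitin ligase that marks RAS-family proteins for degradation, so it acts against the cascade. It lies at chr22:20982269-20999032 on the plus strand. The controls held 10.1, 23.5 and 28.4 CPM (233, 638 and 913 reads), and the sh-*RREB1* libraries 47.1, 63.4 and 48.8 CPM (1170, 1660 and 616 reads). Every sh-*RREB1* library was above the highest control. *LZTR1* rose from 20.7 ± 9.46 to 53.1 ± 8.96 CPM (SD, n = 3), a log2 fold change of 1.36 (SE 0.33, 95% interval 0.62 to 2.10, edgeR adjusted p = 0.0222). Without control replicate 1, which was 1.35 log2 below the other controls, the log2 fold change was 0.998 (edgeR adjusted p = 0.00292).

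Base composition moved with these differences. Over expressed genes, the median log2 fold change was −0.23 in the decile of lowest exonic GC content (26.7% to 38.3%) and 1.11 in the decile of highest (59.7% to 73.8%). Control replicate 1 differed from the other controls by a median log2 of 0.25 in the lowest decile and −1.07 in the highest. Among the 8 genes, *SHOC2* (33.9%) and *BRAF* (38.1%) had the lowest GC content and the negative fold changes, and *MAP2K2* (61.8%) and *MAPK3* (62%) had the highest GC content. *MAP2K2* lay near the middle of its decile, with a log2 fold change above 53.7% of its genes, and *MAPK3* lay above only 19.5% of the same decile. *LZTR1* (58.4%) was above 93.0% of its decile and *ARAF* (53.5%) above 84.6%. *KSR1* (55.6%) and *MAP2K1* (49.1%) were above 72.5% and 68.5%, and *SHOC2* and *BRAF* above 42.3% and 24.5%.

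**Figure D3:**
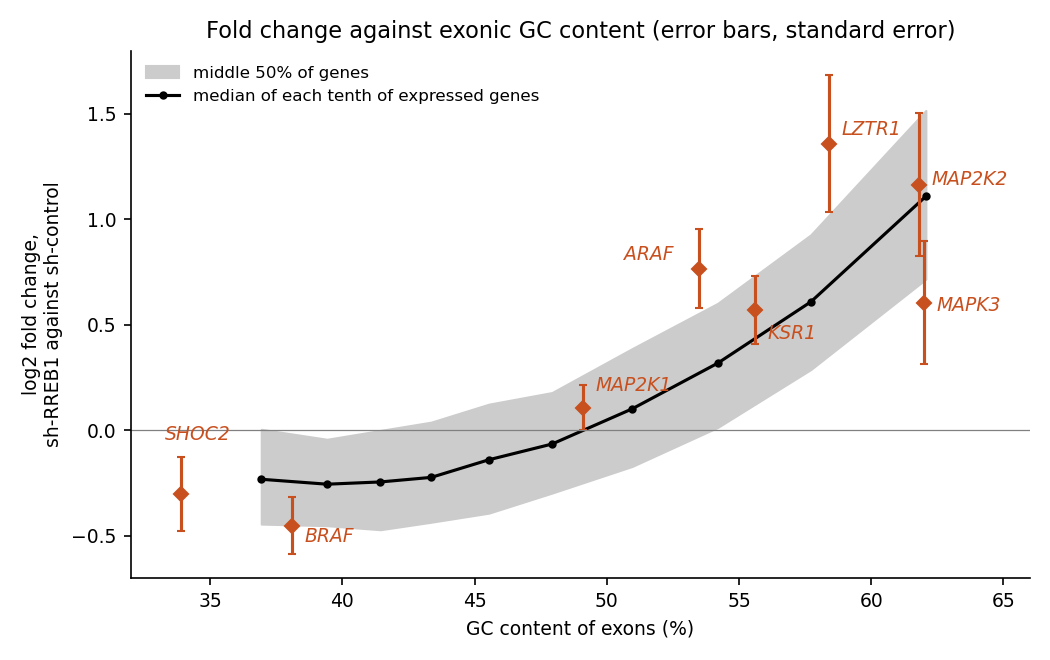
Log2 fold change, sh-*RREB1* against sh-control (vertical axis), by the GC content of a gene's exons in percent (horizontal axis). The line joins the medians of 10 groups of expressed genes, the band holds the middle 50% of each, and diamonds are the 8 genes with standard errors. *LZTR1* and *ARAF* lie above the band, *MAP2K2* lies on the line at 1.16 and *MAPK3* lies below the band at 0.60.

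When the smooth dependence of read counts on GC content and exon length was removed per library in the same edgeR test, 2 of the 8 genes were higher at an adjusted p below 0.05 (10.4% of all genes tested) and 2 were lower (11.7% of all genes tested). *ARAF* and *LZTR1* were the higher pair. Corrected CPM of *ARAF* were 20.0, 22.0 and 22.0 in the controls and 30.6, 30.7 and 30.3 in sh-*RREB1*, with a log2 fold change of 0.51 (SE 0.09, 95% interval 0.31 to 0.71, edgeR adjusted p = 0.00249). The spread within each group was then far smaller than the distance between them. Those of *LZTR1* were 18.7, 27.7 and 29.3 in the controls and 40.1, 40.4 and 40.0 in sh-*RREB1*, with a log2 fold change of 0.66 (SE 0.14, 95% interval 0.35 to 0.96, edgeR adjusted p = 0.00667). Both stayed at an edgeR adjusted p below 0.05 in 6 of 6 fits that left out a library, with log2 fold changes of 0.47 to 0.54 and of 0.49 to 0.78.

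*MAPK3* changed sign under the same correction. Its corrected CPM were 36.6, 35.8 and 35.8 in the controls and 22.6, 29.7 and 27.1 in sh-*RREB1*, so that the groups no longer overlapped and sh-*RREB1* was the lower. The log2 fold change was −0.45 (SE 0.11, 95% interval −0.69 to −0.21, edgeR adjusted p = 0.0137), and it was negative in all 6 fits that left out a library. *BRAF* stayed lower, with a log2 fold change of −0.26 (95% interval −0.44 to −0.08, edgeR adjusted p = 0.0411), and passed 0.05 in 1 of those 6 fits. *MAP2K2* and *KSR1* came to 0.11 (95% interval −0.16 to 0.39, edgeR adjusted p = 0.567) and 0.05 (95% interval −0.25 to 0.35, edgeR adjusted p = 0.845). For *KSR1* the correction widened the spread of the controls, from an SD of 0.94 to 2.26 CPM. Its corrected CPM were 14.8, 10.6 and 11.3 in the controls and 13.2, 11.7 and 12.8 in sh-*RREB1*. Without control replicate 1 its corrected log2 fold change was 0.19 (edgeR adjusted p = 0.229). *MAP2K1* and *SHOC2*, at 0.08 and −0.23, did not pass in either form of the test. The median log2 fold change of the 8 was 0.07 after the correction, against −0.03 for all genes tested. The groups differ in their trends on GC content, so the correction can also take out an effect of the hairpin that follows GC content, and how much of each is removed was not tested.

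A ratio of close relatives within a library does not depend on scaling between libraries. Per kilobase of the canonical transcript, *MAP2K2* made up 18.9%, 33.5% and 36.1% of the MEK pair in the controls (replicates 1, 2 and 3) and 43.1%, 53.3% and 45.3% in sh-*RREB1*. The shares of sh-*RREB1* were all higher, and the ratio of *MAP2K2* to *MAP2K1* was 2.21 times that of sh-control (exact permutation test, two-sided, p = 0.1). With the GC and length trend removed the shares were 37.2% ± 2.85 and 37.9% ± 3.33 (SD, n = 3), and the ratio between groups was 1.03 (exact permutation test, two-sided, p = 0.9). On the corrected scale the ranges of the groups overlapped.

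The RAF pair kept its difference. *ARAF* made up 26.7%, 40.8% and 41.4% of *ARAF* plus *BRAF* in sh-control and 53.7%, 61.5% and 55.1% in sh-*RREB1*, all higher than in any control. The ratio of *ARAF* to *BRAF* was 2.34 times that of sh-control, and 1.71 times with the trend removed, where the shares were 39.7% ± 2.08 and 52.9% ± 1.51 (SD, n = 3). The exact permutation test (two-sided) gave p = 0.1 in both forms, the smallest that 3 against 3 allow.

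**Figure D4:**
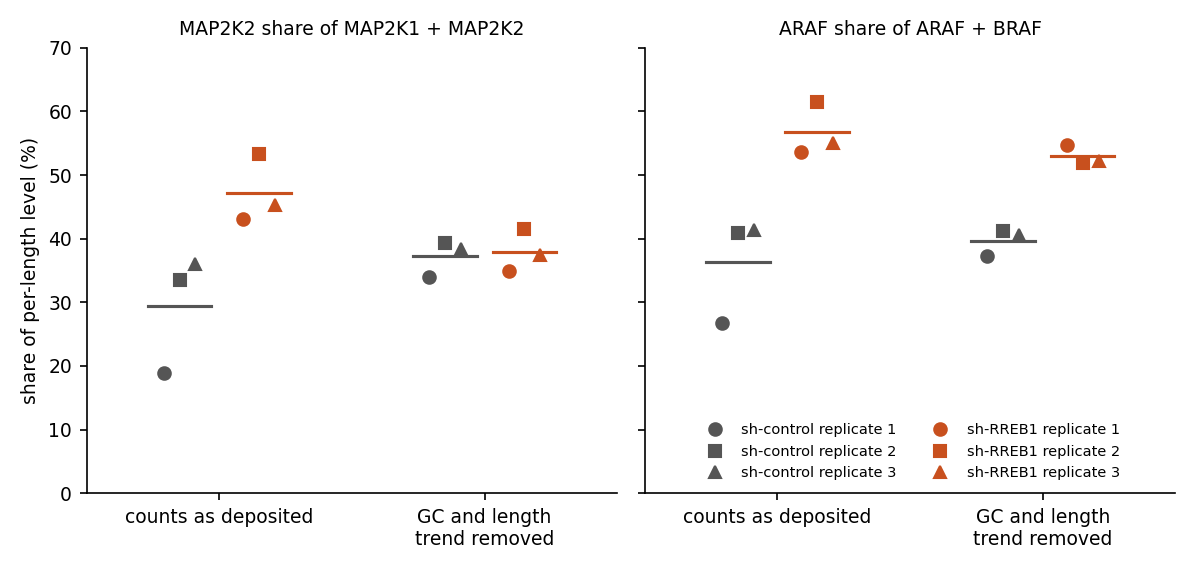
Share of *MAP2K2* in the per-length level of *MAP2K1* plus *MAP2K2* (left) and of *ARAF* in that of *ARAF* plus *BRAF* (right), in percent for each library, from the counts as deposited and with the GC and length trend removed. Bars are group means. The groups are apart for both pairs as deposited (47.2% against 29.5% and 56.8% against 36.3%) and for the RAF pair alone after the correction.

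The order of the 8 genes by level per length, as RPKM on the canonical transcript, differed between the groups. In sh-control the order was *SHOC2* (28.4 ± 6.25), *MAP2K1* (25.7 ± 1.25), *BRAF* (14.7 ± 2.31), *MAPK3* (14.5 ± 5.29), *MAP2K2* (11.3 ± 4.92), *ARAF* (8.31 ± 1.75), *LZTR1* (4.83 ± 2.21) and *KSR1* (1.69 ± 0.156; SD, n = 3). Among neighbours in this order, the library ranges were apart between *MAP2K1* and *BRAF* and between *LZTR1* and *KSR1*, and overlapped elsewhere. In sh-*RREB1* the order was *MAP2K1* (27.6 ± 1.43), *MAP2K2* (25.2 ± 6.89), *SHOC2* (23.0 ± 3.52), *MAPK3* (22.1 ± 5.82), *ARAF* (14.1 ± 1.64), *LZTR1* (12.4 ± 2.09), *BRAF* (10.7 ± 0.625) and *KSR1* (2.50 ± 0.250). Here the ranges were apart between *MAPK3* and *ARAF* and between *BRAF* and *KSR1*. With the summed length of all annotated exons in place of the canonical transcript, *MAP2K1* was first and *KSR1* last in both groups, and *SHOC2* was the second in sh-control and the fifth in sh-*RREB1*.

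Over the 6 libraries, the genes with at least 10 CPM whose log2 CPM was most like that of *MAP2K2* were *PLD2*, *IPO13* and *NT5DC2* (Pearson's r of 0.999 each, among 9376 genes). For *BRAF*, the lower gene with the smallest standard error, they were *NSD3* (0.998), *AHI1* (0.997) and *LRP6* (0.996). These values describe 6 points that share their group, depth and trend on GC content.

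Other genes of the pathway were taken from a list of 45, of which 44 had at least 10 reads in total and *MOS* did not. At the thresholds of the study, edgeR called 2 of the 44, both higher, and DESeq2 called 5, 4 higher and 1 lower. In edgeR at an adjusted p below 0.05 there were 6 higher and 5 lower. The edgeR counts lie near the shares of all genes given above (3.41%, 10.8% and 8.81%). The median log2 fold change of the 44 was 0.07. The genes called by edgeR were *SCRIB*, which encodes a polarity scaffold that binds SHOC2, and *MKNK2*, which encodes a kinase that ERK activates and that phosphorylates the translation factor eIF4E. *SCRIB* had 1.78, 4.08 and 5.60 CPM in the controls and 17.5, 17.6 and 11.6 CPM in sh-*RREB1*, with a log2 fold change of 2.02 (SE 0.37, edgeR adjusted p = 0.00873). *MKNK2* was at 8.82, 17.9 and 18.3 CPM against 45.4, 49.5 and 41.0 CPM, with a log2 fold change of 1.59 (SE 0.26, edgeR adjusted p = 0.00612). The groups were far apart for both. With the GC and length trend removed, *SCRIB* was at 0.40 (edgeR adjusted p = 0.0613) and *MKNK2* at 0.37 (edgeR adjusted p = 0.0251), neither of them called, and *KSR2* and *CNKSR2* were called in their place. At an adjusted p below 0.05 the corrected test gave 6 higher and 8 lower of the 44, where 10.4% and 11.7% of all genes tested were higher and lower. *ARRB2* (−0.62, edgeR adjusted p = 0.0015), *MRAS* (−0.57, edgeR adjusted p = 0.00205) and *PPP1CA* (−0.49, edgeR adjusted p = 0.00379) were lower in that test and had not passed before, and were picked out after their values were seen. Before the correction *ARRB2* and *PPP1CA* had the opposite sign, at 0.08 and 0.55, and *MRAS* was at −0.45. *PPP1CB* (0.68), *PAQR3* (0.35), *PEA15* (0.33) and *ELK4* (−0.29) also passed in the corrected test alone (edgeR adjusted p of 0.0294 to 0.0458). Without sh-control replicate 3 only *SCRIB* was called, and without sh-control replicate 2 or any of the sh-*RREB1* libraries neither was.

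By role, the cascade kinases of the list went apart. *KSR2*, the scaffold related to *KSR1*, was higher with a log2 value of 1.25 (edgeR adjusted p = 0.0106), at 1.25 to 2.17 CPM in sh-control and 4.03 to 4.58 CPM in sh-*RREB1*. *MAP3K8*, which encodes a MEK-activating kinase outside the RAF family, fell by 0.80 on the log2 scale (edgeR adjusted p = 0.0438). With the GC and length trend removed, *KSR2* was at 1.11 (edgeR adjusted p = 0.00528) and *MAP3K8* at −0.65 (edgeR adjusted p = 0.039). Of 7 genes for adaptor proteins that hold RAF in its inactive form, 6 YWHA genes and *SFN*, which had 0 to 10 reads per library, *YWHAB* passed, at −0.44 (edgeR adjusted p = 0.0343). It was at −0.24 with the GC and length trend removed (edgeR adjusted p = 0.0682). The most expressed of them, *YWHAZ*, *YWHAE* and *YWHAQ*, had log2 fold changes of −0.10, −0.04 and 0.04.

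Partners of SHOC2 and chaperones gave a like mixture. Beside *SCRIB*, *ERBIN*, which encodes a leucine-rich repeat protein reported to restrain RAF activation, was lower at −0.62 (edgeR adjusted p = 0.0142), and the phosphatase subunit genes *PPP1CC* and *PPP1CB* were at 0.08 and 0.46 without passing. *PPP1CB* ran from 147 to 215 CPM in sh-control and from 125 to 317 CPM in sh-*RREB1*, the wider group. *CDC37*, which encodes the cochaperone that brings kinases to HSP90, was higher at 1.10 (edgeR adjusted p = 0.0309), and the HSP90 genes *HSP90AA1* and *HSP90AB1* were at −0.24 and −0.04. After the correction *CDC37* was at 0.15 (edgeR adjusted p = 0.254) and *ERBIN* at −0.52 (edgeR adjusted p = 0.00392).

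Of the 15 other scaffolds and anchors, *CNKSR1* was higher at 1.97 (edgeR adjusted p = 0.0149) and *CNKSR2* lower at −1.62 (edgeR adjusted p = 0.0128), both scaffolds that bind RAF. *CNKSR1* was under 1 CPM in every library, at 0.0869 to 0.218 CPM in sh-control and 0.604 to 0.649 CPM in sh-*RREB1*. *CNKSR2* was low too, with 39 to 47 reads per library in sh-control and 7 to 18 reads in sh-*RREB1*. *IQGAP1*, *PEBP1* and *PAQR3*, the most expressed of this role, were at −0.12, 0.20 and 0.21 without passing. After the correction *CNKSR1* was at 1.38 (edgeR adjusted p = 0.0388) and *CNKSR2* at −1.53 (edgeR adjusted p = 0.0032). Of the genes for partners and substrates of LZTR1, *CUL3*, the ligase scaffold itself, was lower at −0.54 (edgeR adjusted p = 0.0237), in the opposite direction to *LZTR1*. *RBX1* and *RIT1* were at −0.16 and −0.19. After the correction *CUL3* was at −0.34 (edgeR adjusted p = 0.0165). Among the 8 kinases and factors that act downstream of ERK, *SRF* was higher beside *MKNK2*, at 0.80 (edgeR adjusted p = 0.0222), and was at −0.16 after the correction (edgeR adjusted p = 0.377). *RPS6KA3*, *ELK4* and *RPS6KA1* were at −0.19, −0.51 and 0.46 without passing.

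**Figure D5:**
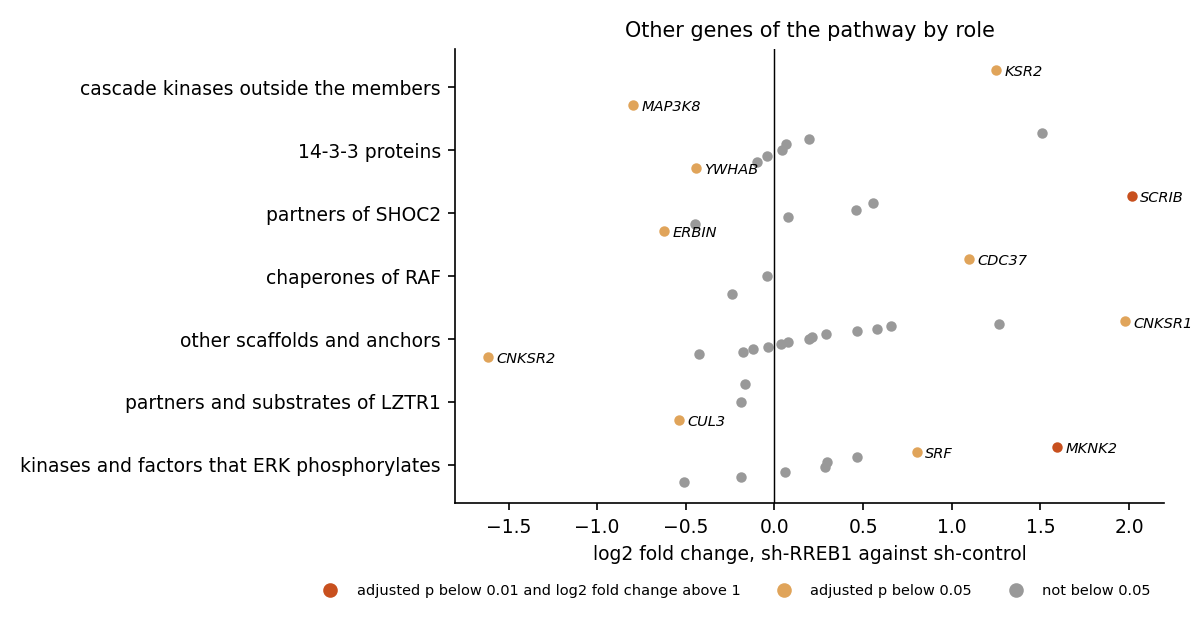
Log2 fold change, sh-*RREB1* against sh-control (horizontal axis), of the 44 other pathway genes by role (rows). Orange-red points passed an adjusted p below 0.01 with an absolute log2 fold change above 1, light orange points an adjusted p below 0.05, and grey points neither. *SCRIB* at 2.02 and *MKNK2* at 1.59 are the called genes, and *CNKSR2* at −1.62 is the lowest.

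Reads were counted by strand. Over all genes, sh-*RREB1* replicate 3 had 3923750 reads on the opposite strand beside 12257054 on the strand of the gene. The other libraries had 1207964 to 1718516 on the opposite strand. Opposite-strand reads were few for most of the 8 genes. They made up 0% of the reads of both strands for *KSR1* in every library and at most 0.318% for *MAP2K2*, 0.653% for *MAPK3* and 2.28% for *BRAF*. *MAP2K1*, whose exons overlap 1322 bases of a long noncoding RNA and 216 bases of *SNAPC5* on the other strand, had 5.63% to 8.08%. *LZTR1* had 5.76% to 6.80% in sh-control and 3.15% to 3.30% in sh-*RREB1*. A long noncoding RNA (ENSG00000285314) annotated on the strand of *LZTR1* shares 3096 exonic bases with it. *KSR1* shares 432 exonic bases in the same way with a protein-coding gene (ENSG00000266728). These overlaps come from the Gencode release used here, which may differ from that of the authors. Reads on several genes were left out, so reads on shared bases were uncounted where the authors' annotation held both genes. Where it held only *LZTR1* or *KSR1*, such reads were counted for that gene.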

How the data were processed

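Strand-specific total RNA of 6 HEK293T libraries, 3 per group, was sequenced. The authors aligned reads with STAR to hg38 and a Gencode annotation and deposited raw read counts per gene, without normalization. They also deposited a merged table, whose 24635 usable identifiers matched the library tables. Sense-strand counts were taken. Reads on no gene or on several genes (21.4% to 35.9% of aligned reads) were left out. Of 58037 identifiers, those sharing a symbol were reduced to the one with most reads, and the 23345 genes with at least 10 reads in total were tested with edgeR 4.0.16 in R 4.3.3 (quasi-likelihood, TMM, condition only, Benjamini-Hochberg). Calls followed the study's thresholds (adjusted p below 0.01, log2 fold change above 1 in size). The test was checked on simulated data that had no trend on GC content and no outlying library. That check therefore says nothing about either.

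Groups came from the sample labels. The replicates of closest counts, sh-control 2 and 3, differed by more than sampling noise (chi-square per degree of freedom of 4.73), so all were kept. Exon length, GC content and coordinates came from Gencode on GRCh38 (99.8% of genes), and the trend of each library was fitted with splines of 5 degrees of freedom. Depth and 3 libraries per group limited precision.

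Named genes were the 8, *RREB1*, listed pathway genes that passed an adjusted p of 0.05, up to 3 of the most expressed per role, and the 3 most like *MAP2K2* and *BRAF*. The members and lists were chosen with earlier results of these data known. Some genes of the pathway are not reported here. Alternatives were DESeq2 1.42.0, other scalings, filters, tables, strands, thresholds, the replicate block, the GC correction, and each library left out.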

Additional observations from a re-analysis of the deposited data

How the results depend on the processing

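Over all genes tested, 795 were called, of which 79.5% were higher. DESeq2 called 1647, a minimum of 1 read in total gave 1804, and an adjusted p below 0.05 with no minimum fold change gave 4577. Leaving out each library in turn gave 8 (without sh-*RREB1* replicate 3) to 1119 (without sh-control replicate 1), among them 9 with sh-control replicate 2 out, 25 and 136 with sh-*RREB1* replicate 1 or 2 out and 384 with sh-control replicate 3 out. With the GC and length trend removed 706 were called, 60.3% of them higher, and 458 to 716 when a library was also left out, an alternative chosen after seeing the data (507 with sh-control replicate 2 out and 492 with sh-*RREB1* replicate 1 out). Among the 8 genes the count of calls was 0, and it was 2 (*LZTR1* and *MAP2K2*) with DESeq2 and with a minimum of 1 read, 5 at an adjusted p below 0.05 alone, and 0 in each fit that left out a library. Among the other pathway genes 2 were called, 5 with DESeq2, 7 with a minimum of 1 read, 1 with both strands together, 11 at an adjusted p below 0.05 alone, 0 to 3 when a library was left out, and 0 to 2 when the GC trend was removed as well.

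Whether replicate numbers pair the libraries could not be told from the counts. Deviations from the group means correlated at 0.63, 0.47 and −0.38 for libraries of the same number (1, 2 and 3). For libraries of different numbers they correlated at −0.639 to 0.675. With 3 libraries per group these correlations depend on each other, so they cannot decide it. Under a replicate block 1685 genes were called, 2 of the 8 (*LZTR1* at 1.46 and *MAP2K2* at 1.24 log2) and 6 other pathway genes, and with the GC correction and the block 872, 0 and 2. The log2 fold change of *RREB1* was −0.14 with the block (edgeR adjusted p = 0.512), −0.36 with the GC correction (0.0534) and −0.37 with both (0.011).

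*MAPK3* reversed with the GC correction (−0.45), with the GC correction and the replicate block (−0.45), and in the corrected fits without a control (−0.438, −0.451 and −0.453 for replicates 1, 2 and 3) or an sh-*RREB1* library (−0.341, −0.545 and −0.461). *KSR1* reversed in the corrected fits without sh-control replicate 2 (−0.0443) and without sh-control replicate 3 (−0.0056). The other 6 genes kept their direction in all 18 alternatives, with log2 fold changes of 0.51 to 0.85 for *ARAF*, −0.55 to −0.26 for *BRAF*, 0.01 to 0.19 for *MAP2K1*, 0.11 to 1.38 for *MAP2K2*, −0.43 to −0.14 for *SHOC2* and 0.66 to 1.63 for *LZTR1*. Those 6 genes also kept their direction in the 6 corrected fits that left out a library. There *MAP2K2* was at only 0.02 to 0.21, *MAP2K1* at 0.05 to 0.11 and *SHOC2* at −0.35 to −0.14. In the same fits *ARAF* was at 0.47 to 0.54, *BRAF* at −0.29 to −0.21 and *LZTR1* at 0.49 to 0.78. The causes were not tested. Depth limits *KSR1* most, at 182 to 440 reads per library.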
